A study of Homo sapiens with 46 samples.

Results

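The genes that write and read histone H3 lysine 9 methylation (H3K9me), the chemical mark of heterochromatin, were followed through auxin treatment in DLD-1, an established cell line from a human colorectal adenocarcinoma. The set has 9 genes of the 62756 in the deposited count table, chosen by name: the heterochromatin protein 1 (HP1) genes CBX1, CBX3 and CBX5, the H3K9 methyltransferase genes SUV39H1, SUV39H2, SETDB1, EHMT1 and EHMT2, and the corepressor gene TRIM28. Each was found once by symbol and all 9 passed the filter on low counts, so none was left out. The study has 4 lines, each sampled after 0, 16 and 96 h of 1 mM auxin: the untagged parental line (genotype WT in the labels) and the lines AID-Lamin A/C (here LAC), AID-Lamin B1 (LB1) and AID-Lamin B2 (LB2), in which the named endogenous lamin carries an auxin-inducible degron at its N-terminus. The degron marks the protein for degradation when auxin is present. Total RNA depleted of ribosomal RNA was sequenced from 46 libraries, 4 in 10 of the groups and 3 in LB1 at 0 h and LB2 at 96 h. A replicate was a well of a culture plate, so p-values measure the spread between wells. The labels do not say how many clones a tagged line comprises, whether the cells at 0 h received the solvent DMSO, or whether the parental line carries the plant receptor that degron lines need.

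Heterochromatin forms where methyltransferases add methyl groups to H3K9 and HP1 proteins bind the methylated tail through their chromodomain. SUV39H1 and SUV39H2 trimethylate H3K9 at pericentromeric repeats, EHMT2 (G9a) and EHMT1 (GLP) form a heterodimer that mono- and dimethylates it mainly in euchromatin, and SETDB1 trimethylates it at retroelements to which TRIM28 (KAP1) is brought by KRAB zinc-finger proteins. Lamins line the inner nuclear membrane, where much of the H3K9-methylated chromatin is tethered. The comparisons below ask whether transcripts of this machinery changed with auxin in each line, and whether a tagged line changed otherwise than the untagged line, which also shows the effects of auxin itself.

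Libraries held 479446 to 37309421 gene-assigned read counts, with a median of 11533218, and 6 libraries held fewer than 5000000, 5 of them in 0 h groups. The epithelial genes EPCAM, CDH1, KRT8, KRT18, KRT19, CDX2 and CDH17 were read in all 46 libraries, whereas CDX1 was at 0 in 40 libraries and VIL1 had a median of 1.21 CPM (counts scaled to a common library size). Of 6 fibroblast genes, COL1A2 and DCN were at 0 in all 46 libraries, whereas COL1A1 was at 0 in 1 and PDGFRB in 3, with medians of 1.255 and 0.796 CPM. Among 3 endothelial genes, VWF was read in every library, at 2.09 to 16.3 CPM, and CDH5 was at 0 in 37. The leukocyte gene PTPRC was at 0 in 30. In bulk RNA, fewer cells of a kind and less RNA per cell cannot be told apart. A degron acts on the protein, so lamin transcripts do not check the depletion. Before auxin, the tagged gene's transcript was nevertheless lower than in the parental line in each tagged line, by edgeR log2 differences of -0.77 for LMNA in LAC (adjusted p = 0.035), -0.64 for LMNB1 in LB1 (adjusted p = 0.012) and -1.02 for LMNB2 in LB2 (adjusted p = 0.00086). The LMNA libraries of LAC and the parental line overlapped. The LMNA call was lost in 6 of 8 fits that left out a library, with adjusted p up to 0.13. The LMNB1 call was lost in 1 of 7 such fits. The LMNB2 libraries of LB2 and the parental line overlapped too. The LMNB2 call was kept in all 8 such fits and in 8 of 9 other settings, with edgeR or alternative adjusted p up to 0.073.

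Of the 9 genes, 3 passed the test upward with auxin in the untagged line. In that line 9.01% of all tested genes were called at 16 h and 7.78% at 96 h, in either direction. The stretches just upstream of the starts of these 3 are shown, each short and shared with a neighbour on the other strand. The sequences are from RefSeq on GRCh38.p14, read on the gene's own strand and limited to bases outside RefSeq genes and GENCODE 29 exons. Capitals mark matches on either strand to the NRF1 motif (GCGCA, any base, then GCGC), the CCAAT box (CCAAT) and the GC box (GGGCGG).
CBX5, chr12:54280134-54280192, minus strand, 59 bases: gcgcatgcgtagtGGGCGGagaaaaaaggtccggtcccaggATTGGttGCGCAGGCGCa
EHMT2, chr6:31897699-31897782, minus strand, 84 bases: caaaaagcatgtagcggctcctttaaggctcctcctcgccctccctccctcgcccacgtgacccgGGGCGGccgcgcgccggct
SUV39H2, chr10:14878687-14878819, plus strand, 133 bases: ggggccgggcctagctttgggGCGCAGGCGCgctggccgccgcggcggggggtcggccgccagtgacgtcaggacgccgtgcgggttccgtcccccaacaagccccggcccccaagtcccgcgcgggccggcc
CBX5 starts 60 bases from HNRNPA1, EHMT2 starts 98 bases from the complement gene C2, and SUV39H2 starts 134 bases from the noncoding gene SUV39H2-DT. Among 35116 RefSeq promoter windows of 300 bases, 5.78% held the NRF1 letters, 34.6% the CCAAT letters and 45.0% the GC box letters. The E2F letters TTTNNCGC, in 6.89% of the windows, and the ETS letters CCGGAA, in 17.2%, were also searched and neither lies in the stretches shown. These windows are longer than the stretches shown. EHMT1, called in none of the 21 comparisons by edgeR, has such a stretch too. That stretch has 56 bases, lies between the starts of EHMT1 and ARRDC1-AS1, 57 bases apart, and holds NRF1 and GC box letters. A match is a description of letters, not a binding site. Promoter entries were matched for 8 of the 9 genes, TRIM28 being the other. In the count table's positions on GRCh38, CBX5 (ENSG00000094916.16) spans chr12:54230942-54280133, EHMT2 (ENSG00000204371.12) spans chr6:31879759-31897698, SUV39H2 (ENSG00000152455.16) spans chr10:14878820-14904315 and TRIM28 (ENSG00000130726.12) spans chr19:58544064-58550722, each a protein-coding gene in GENCODE 29, and the 3 stretches lie just outside the first exon.

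Levels between genes were compared per kilobase of union exon (RPKM). In the parental line at 0 h, TRIM28 was highest at 171.5 ± 12.5 RPKM (SD, n = 4), followed by CBX3 at 64.1 ± 1.93, CBX5 at 40.8 ± 8.31 and CBX1 at 23.2 ± 1.64. The methyltransferases were lower, with EHMT2 at 12.7 ± 0.488, SUV39H2 at 12.4 ± 1.45, SUV39H1 at 9.54 ± 0.588, SETDB1 at 6.18 ± 0.375 and EHMT1 at 3.47 ± 0.174 RPKM. EHMT2 and SUV39H2 did not differ beyond their spread, and the other neighbours in this order did. The long annotated exons of CBX5 (15038 bases) and EHMT1 (22188 bases) lower their values per kilobase. Over the 12 groups the mean level varied most for CBX5, 3.14-fold between LB2 at 0 h and LAC at 16 h, and least for SETDB1, 1.36-fold between LB2 at 0 h and LB1 at 96 h.

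**Figure D1:**
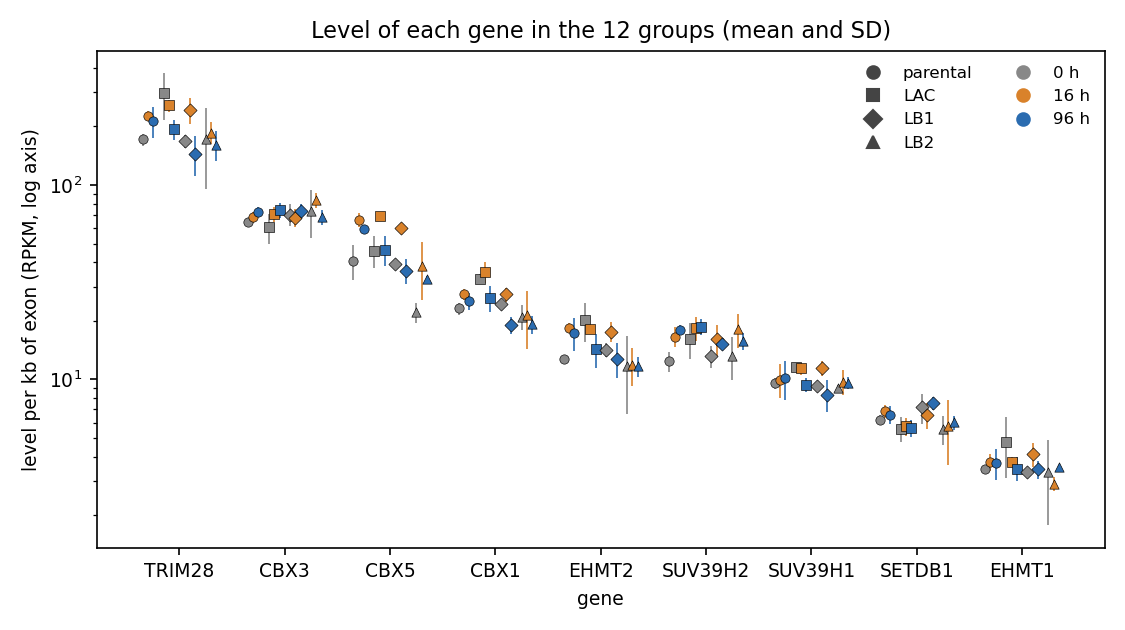
Level of each gene per kilobase of exon (RPKM, log axis) in the 12 groups, with shapes for lines, colours for hours of auxin, and vertical bars for the SD over 3 or 4 libraries. TRIM28 lay highest, the HP1 genes next and the methyltransferases lowest, and CBX5 spread most widely, from a mean of 22.2 RPKM in LB2 at 0 h to 69.6 RPKM in LAC at 16 h.

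CBX5, which encodes HP1 alpha, was the member that passed the test at 16 h of auxin in every line. In the parental line its normalised counts were 507, 794, 564 and 589 CPM at 0 h and 1108, 1010, 923 and 942 CPM at 16 h. All the treated libraries lay above all the untreated ones. The log2 difference was 0.70 ± 0.15 (SE), a 1.62-fold increase (edgeR adjusted p = 0.0027). At 96 h the 4 parental libraries held 876, 911, 886 and 916 CPM, again above every 0 h library, and the log2 difference from 0 h was 0.55 (adjusted p = 0.018). In that line 2 of the 9 genes were called at 16 h, where 9.01% of the 21484 tested genes were called at an adjusted p under 0.05, and 2 at 96 h, where 7.78% were. The 96 h call was lost, at an adjusted p of up to 0.072, when parental 0 h replicate 1, 3 or 4 was left out.

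The tagged lines showed the same direction for CBX5 at 16 h. LAC libraries held 531, 839, 696 and 699 CPM at 0 h and 1003, 1055, 1045 and 1081 CPM at 16 h, and the groups did not overlap (log2 difference 0.60 ± 0.15, edgeR adjusted p = 0.030). LB1 libraries held 614, 595 and 563 CPM at 0 h and 837, 931, 970 and 869 CPM at 16 h, also without overlap (0.61 ± 0.17, adjusted p = 0.046). LB2 libraries held 362, 373, 294 and 304 CPM at 0 h and 809, 595, 344 and 550 CPM at 16 h (0.81 ± 0.15, adjusted p = 0.0018). In LB2 the groups overlapped through the third 16 h library, which held 479446 counts, the fewest of all. CBX5 was the only one of the 9 genes called at 16 h in each tagged line, where 1.78% of tested genes were called in LAC, 1.5% in LB1 and 1.81% in LB2. Across the table, 18 genes (0.0838%) were called higher at 16 h in all 4 lines. The lists from these comparisons have no shared library, since each line has its own 0 h group.

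These CBX5 calls differed in how firmly they held. The parental call at 16 h was kept under all 9 other settings and in each of the 8 fits that left out a library. The LAC call was lost in 6 of 8 such fits, and with GC and length trends removed the log2 difference was 0.34 (adjusted p = 0.12). The LB1 call was lost in 6 of 7 such fits, with adjusted p up to 0.18. In LB2, leaving out 16 h replicate 1 gave 0.58 (adjusted p = 0.071), and fitting only the compared libraries gave an adjusted p of 0.71. The sign was positive in every fit.

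**Figure D2:**
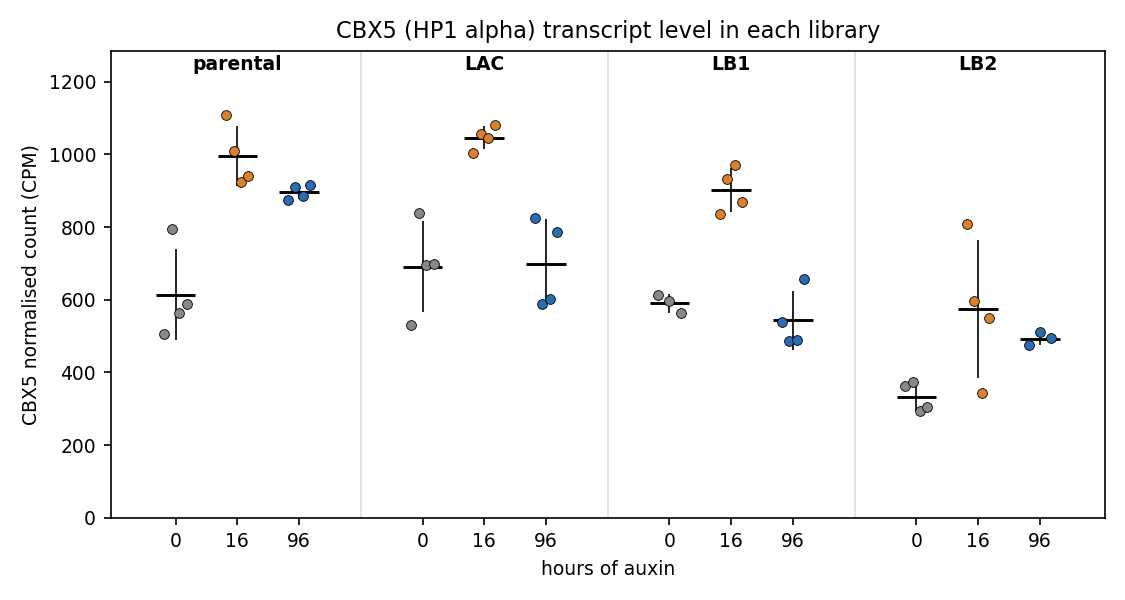
CBX5 normalised count (CPM, axis from 0) in every library, by line and hours of auxin, with the mean as a horizontal bar and the SD as a vertical bar. The 16 h libraries of the parental, LAC and LB1 lines lie above all 0 h libraries of the same line, LB2 starts lower, at 294 to 373 CPM, and the 96 h libraries of LAC and LB1 span 486 to 825 CPM.

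At 96 h all CBX5 libraries of LB2, like those of the parental line, lay above the 0 h libraries of the same line, which was not so in LAC and LB1. LB2 libraries held 475, 510 and 494 CPM, above all LB2 libraries at 0 h (log2 difference 0.57 ± 0.16, edgeR adjusted p = 0.038, in a comparison with 1 of 9 genes called and 3.55% of all tested). That call was lost in 5 of the 7 fits that left out a library. LAC libraries held 825, 587, 601 and 785 CPM, within the range of LAC at 0 h (0.02, adjusted p = 0.96), and LB1 libraries held 538, 486, 490 and 658 CPM (-0.12, adjusted p = 0.80). A comparison of 96 h with 16 h, added after these values had been seen, gave -0.58 ± 0.15 in LAC (adjusted p = 0.014) and -0.73 ± 0.15 in LB1 (adjusted p = 0.00053, 1.66-fold lower). The same difference was -0.15 in the parental line (adjusted p = 0.91) and -0.24 in LB2 (adjusted p = 0.48). The LAC call was lost without 96 h replicate 2 or 3, with adjusted p up to 0.087.

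HP1 alpha's transcript also took a changing part of the HP1 family total. In the parental line CBX5 made up 31.6% ± 3.95 (SD, n = 4) of the summed per-kilobase level of CBX1, CBX3 and CBX5 at 0 h, 40.9% ± 1.504 at 16 h and 37.8% ± 1.25 at 96 h. The share went from 32.8% to 39.6% and then 31.5% in LAC, and from 29.4% to 38.7% and then 28.1% in LB1. In LB2 it was 19.4% at 0 h, 26.2% at 16 h and 27.3% at 96 h. At 0 h, the highest LB2 library (26.2%) lay below the lowest parental library (27.6%).

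CBX5's neighbour across the short upstream stretch, HNRNPA1, which encodes an abundant RNA-binding protein, did not pass the test at 16 h in any line. Its log2 differences were 0.19, -0.12, 0.01 and 0.20 in the parental, LAC, LB1 and LB2 lines, with edgeR adjusted p of 0.26, 0.56, 0.98 and 0.35. It was called higher in LB2 at 96 h (0.44, adjusted p = 0.020), a call lost with GC and length trends removed (0.34, adjusted p = 0.073) and in 3 of 7 fits that left out a library. The differences between the 2 genes were not tested.

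CBX1 (HP1 beta) was not called against 0 h in any line. Its 96 h libraries held 92.4, 65.8, 74.1 and 87.8 CPM in LAC, below all LAC libraries at 0 h (92.9, 105, 105 and 99.8 CPM; log2 difference -0.33, edgeR adjusted p = 0.075). In LB1 they held 56.2, 51.2, 58.9 and 65.3 CPM against 69.1, 75.7 and 77.2 CPM at 0 h (-0.35, adjusted p = 0.21), also without overlap. Against 16 h, in the added comparison, CBX1 was lower at 96 h in LAC (-0.45, adjusted p = 0.029) and LB1 (-0.53, adjusted p = 0.0034). The LAC call was lost in 5 of 8 fits that left out a library, with adjusted p up to 0.18. With GC and length trends removed, CBX1 was called lower in LAC at 96 h than at 0 h (-0.34, adjusted p = 0.016). CBX3 (HP1 gamma) was called in none of the 21 comparisons by edgeR or DESeq2, in 1 at an unadjusted edgeR p under 0.05 in 5 by limma voom with sample weights and in 1 by edgeR with GC and length trends removed, with group means from 293 to 405 CPM. Its start overlaps that of HNRNPA2B1 on the other strand. Named CBX3 pseudogenes, of which the table lists 10, held a median of 0.716% of CBX3's counts per library and at most 4.23%, and reads shared with them may have been counted for either.

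**Figure D3:**
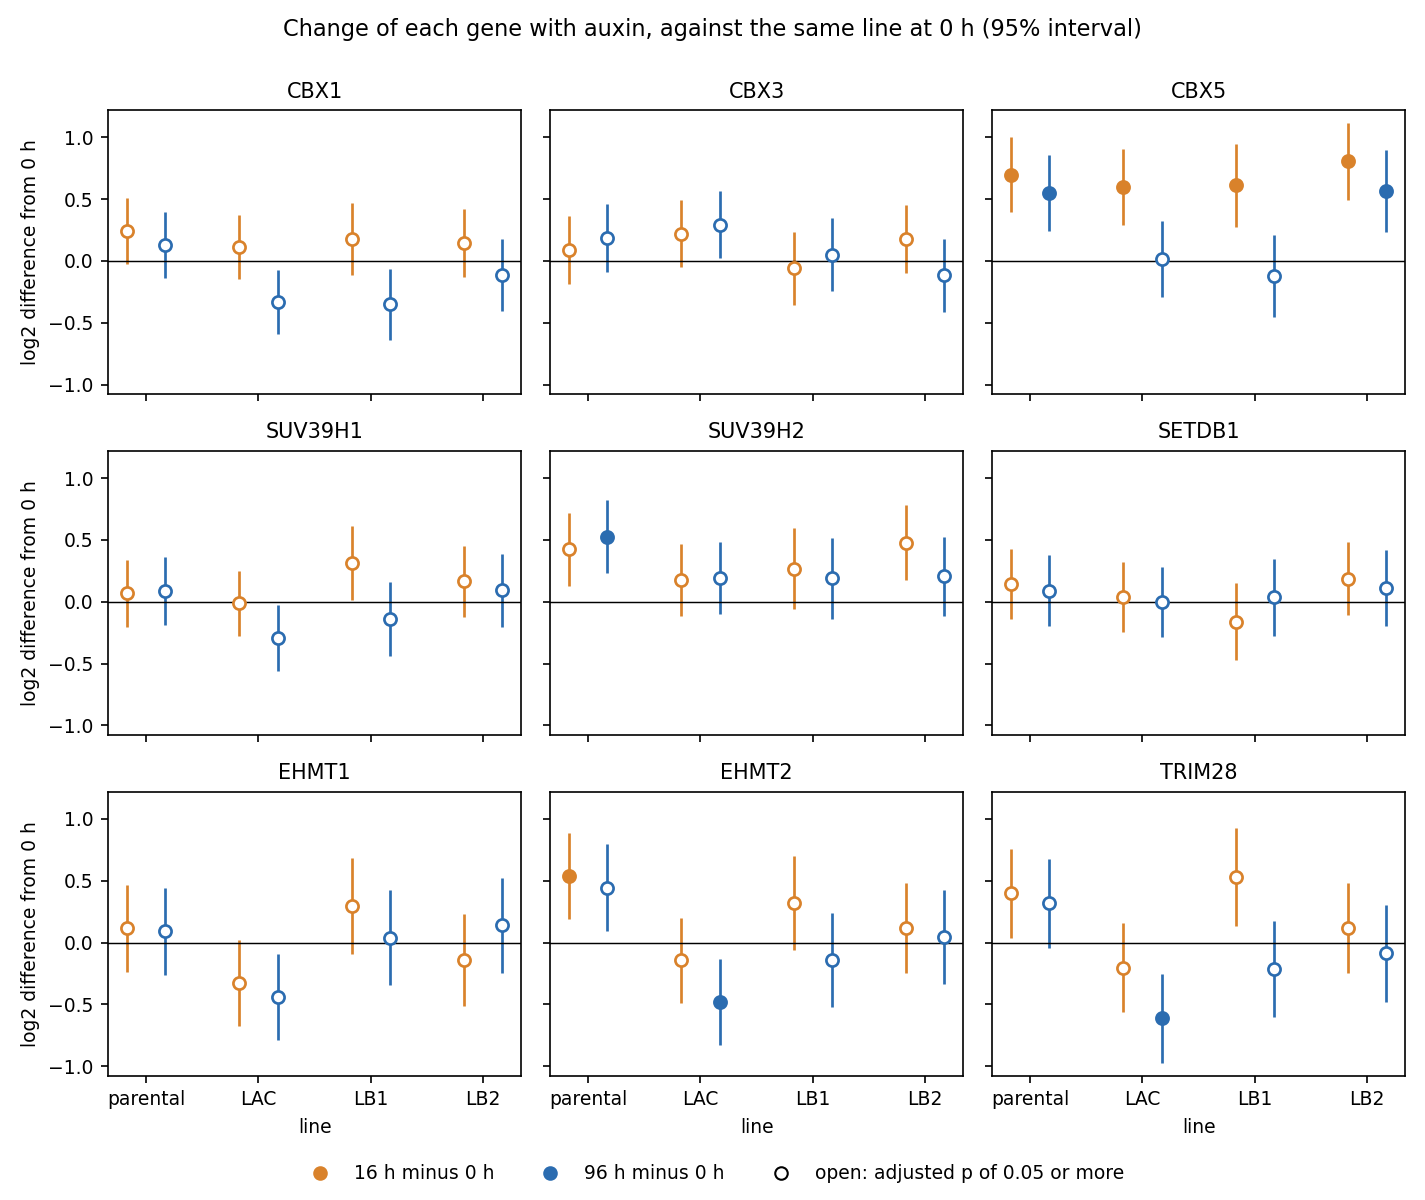
Log2 difference of each of the 9 genes from the same line at 0 h, at 16 h (orange) and 96 h (blue), with 95% intervals; filled points have an edgeR adjusted p under 0.05. CBX5 is filled at 16 h in all 4 lines, and TRIM28 and EHMT2 are filled below 0 in LAC at 96 h.

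SUV39H2, whose enzyme shares H3K9 trimethylation at pericentromeres with SUV39H1, rose in the untagged line. Parental libraries held 39.7, 51.5, 43.8 and 41.6 CPM at 0 h and 65.1, 59.5, 68.3 and 62.4 CPM at 96 h. The groups did not overlap, and the log2 difference was 0.53 ± 0.15 (edgeR adjusted p = 0.019). At 16 h the libraries held 65.7, 63.1, 50.5 and 57.5 CPM, of which the third lay within the 0 h range (0.42, adjusted p = 0.061). The 96 h call was lost in 3 of 8 fits that left out a library, with adjusted p up to 0.063. In the tagged lines SUV39H2 was not called, with log2 differences from 0.17 to 0.48 over the 6 comparisons with 0 h. SUV39H2-DT, its divergent noncoding neighbour, had a log2 difference of 0.95 at 96 h in the parental line (adjusted p = 0.46).

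SUV39H1 was not called against 0 h in any line. In LB1 its libraries held 30.0, 29.9 and 29.6 CPM at 0 h, 40.0, 35.6, 39.5 and 33.1 CPM at 16 h, and 22.6, 24.6, 27.0 and 33.9 CPM at 96 h. The 16 h libraries lay above all at 0 h (log2 difference 0.31, edgeR adjusted p = 0.31), and 96 h was lower than 16 h in the added comparison (-0.45, adjusted p = 0.012), a call lost without 96 h replicate 1 or 2. With GC and length trends removed that difference was -0.14 (adjusted p = 0.34). SETDB1 and EHMT1 were called in none of the 21 comparisons by edgeR on the counts as deposited or by DESeq2, with group means of 40.9 to 55.6 CPM and 64.4 to 106 CPM. At an unadjusted edgeR p under 0.05 the counts were 0 and 3, and by limma voom 0 and 3. With GC and length trends removed, SETDB1 was called higher in LB1 at 96 h than at 16 h (0.41, edgeR adjusted p = 0.0048), where the value from the counts as deposited was 0.20 (adjusted p = 0.32). The 3' end of SETDB1 overlaps CERS2 on the other strand, and whether counting used strand is not given in the sources used here. The smallest SETDB1 value, 19.6 CPM, came from 9 reads in the shallowest LB2 library.

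EHMT2 rose at 16 h in the untagged line and was lower at 96 h in LAC. Parental libraries held 88.5, 95.3, 96.0 and 91.1 CPM at 0 h, 135, 127, 130 and 146 CPM at 16 h, and 105, 161, 118 and 120 CPM at 96 h. Both treated groups lay above all 0 h libraries, with log2 differences of 0.54 ± 0.17 at 16 h (edgeR adjusted p = 0.042) and 0.44 at 96 h (adjusted p = 0.11). The 16 h call was lost in 6 of 8 fits that left out a library, with adjusted p up to 0.14. LAC libraries held 193, 117, 143 and 133 CPM at 0 h and 125, 81.0, 93.9 and 118 CPM at 96 h. They overlapped, and the log2 difference was -0.48 ± 0.17 (adjusted p = 0.049). Its heterodimer partner EHMT1 had a log2 difference of -0.44 in that comparison (adjusted p = 0.075).

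TRIM28, the scaffold between KRAB zinc-finger proteins and SETDB1, was the other member called lower in LAC at 96 h, where 15.4% of all tested genes were called. LAC libraries held 1776, 1015, 1123 and 1186 CPM at 0 h, 1170, 1027, 1179 and 1048 CPM at 16 h, and 917, 722, 781 and 912 CPM at 96 h. All 96 h libraries lay below all 0 h libraries (log2 difference -0.61 ± 0.18, edgeR adjusted p = 0.014, 1.53-fold lower). Both LAC calls depended on the first 0 h library, which held 3318819 counts: without it TRIM28 had -0.40 (adjusted p = 0.14) and EHMT2 -0.31 (adjusted p = 0.26). Leaving out LAC 96 h replicate 2 gave -0.55 (adjusted p = 0.065) and -0.38 (adjusted p = 0.20), and EHMT2 was also lost without LAC 0 h replicate 3 or 4 or 96 h replicate 3.

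In the parental line TRIM28 libraries held 737, 673, 805 and 740 CPM at 0 h and 1025, 908, 942 and 1023 CPM at 16 h. The groups did not overlap, yet the log2 difference of 0.40 had an edgeR adjusted p of 0.15. LB1 libraries held 676, 785 and 715 CPM at 0 h, 1279, 980, 996 and 927 CPM at 16 h, and 474, 534, 703 and 788 CPM at 96 h. The log2 difference at 16 h was 0.53 (adjusted p = 0.16), and 96 h was 1.67-fold lower than 16 h in the added comparison (-0.74 ± 0.18, adjusted p = 0.0025). In all, 5 of 9 members, CBX1, CBX5, SUV39H1, EHMT2 and TRIM28, were called in that LB1 comparison, all lower, where 20.4% of all tested genes were called. In the same comparison 4 of 8 epithelial genes, EPCAM, CDH1, KRT8 and KRT18, and all 3 lamin genes were called lower and the epithelial gene CDH17 higher (1.13), and the Spearman correlation of the log2 differences with GC content was -0.31. The epithelial genes had a summed level of 8195 to 12060 CPM at 16 h and 6348 to 8390 CPM at 96 h, and their part in the members' values was not tested. With GC and length trends removed CBX1, CBX5 and TRIM28 were still called lower (-0.33, -0.70 and -0.34) and SUV39H1 and EHMT2 were not. CBX3 (0.22) and SETDB1 were then called higher. The counts were 2 of 9 with 5.27% in LAC, 0 of 9 with 0.265% in the parental line and 0 of 9 with 2.5% in LB2. No member had an unadjusted edgeR p under 0.05 in the last 2, where DESeq2 called 0 in each and limma voom 0 and 3. Among the 21484 tested genes, 1613 and 3595 had such an unadjusted p there. DESeq2 called 112 and 847 of the 21484, and limma voom 567 and 4283. EHMT2's call in LB1 (-0.46, adjusted p = 0.049) was lost in 5 of 8 fits that left out a library.

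**Figure D4:**
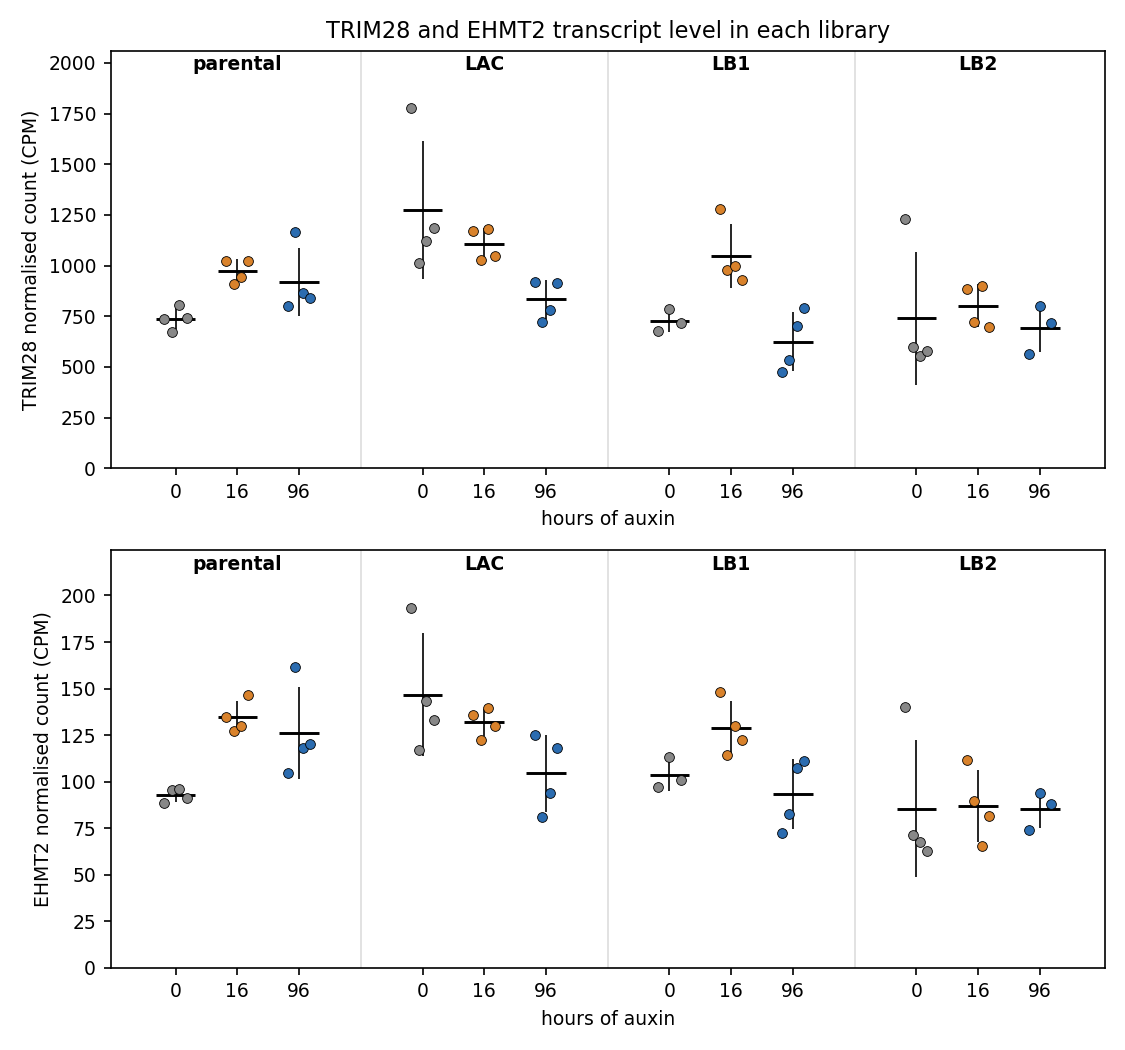
TRIM28 (upper) and EHMT2 (lower) normalised counts (CPM, axes from 0) in every library, with the mean as a horizontal bar and the SD as a vertical bar. The first 0 h libraries of LAC and LB2 stand above the rest of their groups, at 1776 and 1232 CPM for TRIM28 and 193 and 140 CPM for EHMT2.

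The GC content of a transcript ran with these differences. Over 8547 genes, the log2 difference between LAC at 96 h and 0 h had a Spearman correlation of -0.66 with GC content, that at 16 h had -0.71, and the parental differences had 0.01 and 0.02. TRIM28 (63.7% GC) and EHMT2 (60.9%) are the most GC-rich members, and CBX3 (39.5%), SUV39H2 (41.1%) and CBX5 (41.8%) the least. For each of the 46 libraries the correlation of all genes' deviations with GC content was set against each member's level, as a description over libraries that differ in depth and group. Pearson's r was 0.70 for TRIM28, 0.64 for EHMT2, 0.78 for EHMT1, -0.79 for CBX3, -0.57 for SUV39H2 and 0.10 for CBX5. The first 0 h libraries of LAC and LB2 had the highest such correlations, 0.72 and 0.65.

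**Figure D5:**
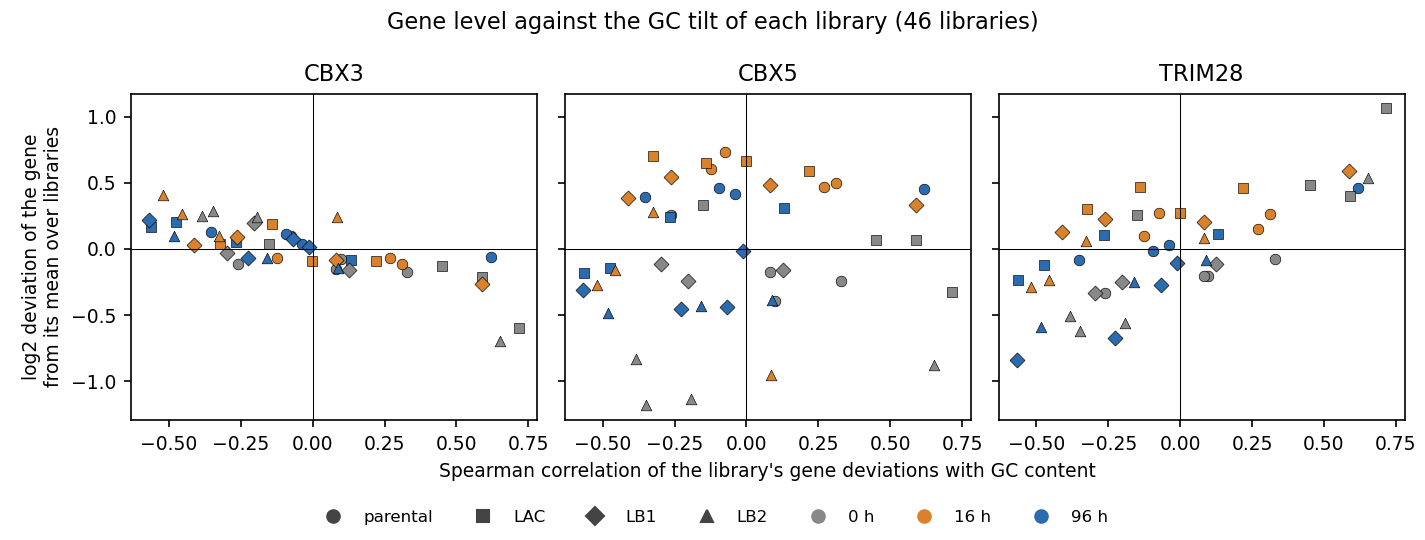
Log2 deviation of CBX3, CBX5 and TRIM28 from their mean over 46 libraries, against the Spearman correlation of each library's gene deviations with GC content; shapes are lines and colours hours of auxin. CBX3 falls and TRIM28 rises along the horizontal axis (r = -0.79 and 0.70), and CBX5 shows little slope (r = 0.10).

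When smooth trends in GC content and length were removed from each library, the LAC differences at 96 h became -0.05 for both TRIM28 (edgeR adjusted p = 0.70) and EHMT2 (adjusted p = 0.77). In the parental line the changes became smaller and their adjusted p values lower: EHMT2 was called at 16 h (0.40, adjusted p = 0.00030) and 96 h (0.32, adjusted p = 0.0023), SUV39H2 at both times (0.28 and 0.42), CBX5 at both times (0.62 and 0.51) and TRIM28 at both times (0.28 and 0.21). TRIM28 was then also called at 16 h in LB1 (0.34, adjusted p = 0.0027) and LB2 (0.30, adjusted p = 0.0062). The part of GC content in these differences was not tested beyond this fit.

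Whether a tagged line responded otherwise than the parental line was tested as a difference of the 2 responses, in 54 member tests. These tests share the parental libraries, and those at 16 and 96 h share the 0 h libraries too. EHMT2 and TRIM28 passed, both in LAC at 96 h, where 7.4% of all tested genes were called. EHMT2's LAC response was lower than the parental response by a log2 difference of -0.93 ± 0.24 (95% interval -1.42 to -0.43, edgeR adjusted p = 0.017). The TRIM28 difference was -0.93 ± 0.25 (-1.44 to -0.42, adjusted p = 0.020). With GC and length trends removed they were -0.37 (adjusted p = 0.023) and -0.26 (adjusted p = 0.071). Without LAC 96 h replicate 2 the adjusted p was 0.055 for each gene, and TRIM28 was also lost without parental 96 h replicate 2 (adjusted p = 0.051).

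The CBX5 response did not differ from the parental one past the threshold in any tagged line. At 16 h the differences were -0.10 in LAC (95% interval -0.53 to 0.33), -0.09 in LB1 (-0.54 to 0.36) and 0.11 in LB2 (-0.33 to 0.54). At 96 h they were -0.53 in LAC (-0.96 to -0.10, edgeR adjusted p = 0.12), -0.67 in LB1 (-1.12 to -0.22, adjusted p = 0.12) and 0.02 in LB2 (-0.43 to 0.47, adjusted p = 0.99). With trends removed the LAC and LB1 differences at 96 h were -0.68 (adjusted p = 0.0057) and -0.65 (adjusted p = 0.021). No member was called in the other response differences, in which 0.116% of all tested genes were called for LAC at 16 h, 0.0279% and 1.04% for LB1 at 16 and 96 h, and 0.00465% and 0.368% for LB2. Members with an unadjusted edgeR p under 0.05 numbered 2, 0, 4, 0 and 0 in that order, and limma voom called 1, 0, 1, 0 and 1 where DESeq2 called 0 in each. Of all 21484 tested genes, 2651, 1340, 3570, 1195 and 2726 had an unadjusted edgeR p under 0.05 in that order. Of the 21484, limma voom called 675, 35, 1128, 2 and 556, and DESeq2 224, 30, 478, 2 and 211. In LB1 at 96 h against its own 0 h, 0 of 9 members were called, where 3.17% of all tested genes were. Of the 9, 1 had an unadjusted edgeR p under 0.05, and DESeq2 and limma voom called 0. Among the 21484 tested genes, 3161 had such an unadjusted p, DESeq2 called 998 and limma voom 1619.

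The lines already differed before auxin. CBX5 was 1.84-fold lower in LB2 than in the parental line at 0 h (log2 difference -0.88 ± 0.15, edgeR adjusted p = 7.7e-05), with 362, 373, 294 and 304 CPM against 507, 794, 564 and 589 CPM. The groups did not overlap. CBX5 was 1 of 9 genes called there, beside 8.21% of all tested genes. The call was kept under all 9 other settings and in all 8 fits that left out a library. In LAC, 3 of 9 genes were called higher than in the parental line, where 15.8% of tested genes were called: TRIM28 by 0.79 (adjusted p = 0.0018), EHMT2 by 0.65 (adjusted p = 0.0072) and CBX1 by 0.51 (adjusted p = 0.0054). None of the 3 overlapped between the lines. With trends removed these differences were 0.34, 0.30 and 0.37, each still called, and they also stayed called in all 8 fits that left out a library. The Spearman correlation of that line difference with GC content was 0.49. The LAC libraries at 0 h enter both this comparison and the LAC changes with auxin. In LB1 no member was called at 0 h, where 4.05% of tested genes were called, no member had an unadjusted edgeR p under 0.05, and DESeq2 and limma voom called 0. Among the 21484 tested genes, 3109 had such an unadjusted p, DESeq2 called 1038 and limma voom 1551.

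Members' levels moved together in part. Within groups, over 46 libraries, Pearson's r of log2 levels was 0.87 between EHMT2 and TRIM28, 0.85 between EHMT1 and TRIM28, 0.76 between CBX1 and CBX5, 0.76 between CBX3 and SUV39H2, and -0.88 between CBX3 and EHMT1. These descriptions share the libraries' depth and GC trend. Over the 12 group means and 9628 genes with a mean of at least 10 CPM, the pattern most like CBX5's was that of TAOK1 (r = 0.98), followed by PRRC1 (0.97). For EHMT2 it was ZNF282 (0.98) and SKI (0.96), for TRIM28 POM121C (0.98) and PABPC4 (0.97), and for CBX1 CELF1 (0.97) and EEF2 (0.96). For SUV39H1 these genes were SH3GL1 and DNMT1, for SUV39H2 RBAK and SERBP1, for CBX3 SELENOF and COMMD2, for SETDB1 PRR15 and ID1, with r from 0.93 to 0.95, and for EHMT1 TOP3A was among them (0.92).

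Partners of these enzymes were read from lists of other genes. Of 14 genes of methyltransferase partners and silencing complexes, 13 were tested. In the LAC response difference at 96 h, 1 was higher and 2 were lower, with a median of -0.10 beside 0.06 for all genes. Of all tested genes, 7.4% were called there. The higher was ATF7IP2, a relative of the SETDB1 cofactor ATF7IP, with a log2 difference of 1.69 ± 0.41 (edgeR adjusted p = 0.0094). WIZ, the zinc-finger partner of the EHMT1 and EHMT2 dimer, was lower by -1.27 ± 0.26 (adjusted p = 0.0030), as was ZNF274, a KRAB zinc-finger protein that recruits TRIM28 and SETDB1, by -0.78 (adjusted p = 0.030). Like EHMT2, WIZ was higher in LAC than in the parental line at 0 h (1.02, adjusted p = 0.00012) and lower in LAC at 96 h than at 0 h (-0.84, adjusted p = 0.0012). With GC and length trends removed the 0 h difference of WIZ was 0.58 (edgeR adjusted p = 1.3e-06). Its LAC change at 96 h was then -0.22 (adjusted p = 0.067), and that call was lost. With trends removed the response difference of WIZ was -0.55 (adjusted p = 0.0024) and that of ZNF274 -0.54 (adjusted p = 0.16), and the ZNF274 call was lost in 5 of 16 fits that left out a library. In the untagged cells ATF7IP2 had log2 differences of -0.95 at 16 h (adjusted p = 0.027) and -0.99 at 96 h (adjusted p = 0.022), calls lost in 4 and 5 of 8 fits that left out a library, and it was lower in LAC than in the parental line at 0 h (-1.61, adjusted p = 0.00018).

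Of 11 H3K9 demethylase genes, all tested, 1 was called in the LAC response difference at 96 h, beside 7.4% of all tested genes. It was KDM7A, higher by 0.67 (edgeR adjusted p = 0.029), with a list median of -0.09. That call was lost in 7 of 16 fits that left out a library, with adjusted p up to 0.11. In the parental line KDM1A was the demethylase gene called at 16 h (0.42, adjusted p = 0.010), where 9.01% of all tested genes were called. Of 19 HP1-associated and DNA methylation genes, 2 were lower in the LAC response difference at 96 h: CHAF1A, the large subunit of the chromatin assembly factor that binds HP1 (-0.94, adjusted p = 0.0081), and UHRF1, which reads H3K9 methylation for DNA methylation (-0.79, adjusted p = 0.025). The UHRF1 call was lost in 4 of 16 fits that left out a library, with adjusted p up to 0.080, and with trends removed the values were -0.50 for CHAF1A and -0.46 for UHRF1. The list's median was -0.13, in that comparison with 7.4% of all tested genes called. In LAC at 96 h against 0 h, 6 of these 19 were lower and 1 higher, with a median of -0.07, where 15.4% of all tested genes were called. ATRX was the higher (0.43, adjusted p = 0.021), a call lost in 4 of 8 fits that left out a library, and DNMT1 had -0.48 (adjusted p = 0.0076). With trends removed 5 were lower and none was called higher.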

How the data were processed

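RNA from 46 wells was measured as read counts per gene. The deposited table holds whole-number counts per gene, raw and not normalised, which the authors made with STAR 2.7.10a and featureCounts 1.6.4 on GRCh38, per the submitters' processing notes. The annotation release and strand setting of the counting are not given in the sources used here, and gene positions in the table are those of GRCh38. GENCODE 29 was used here as the reference annotation for gene types, neighbours, exons and GC content. The library kit marks strand, per the labels' protocols. The count table splits 1 gene across 3 lines, and it was not used here, and 67.5% of genes were matched to a symbol.

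Genes were filtered with edgeR's filterByExpr, scaled by TMM and tested by quasi-likelihood F-tests in edgeR 4.0.16 (R 4.3.3) in a single fit of 12 groups over 46 libraries, so that all groups shared the estimate of spread. P-values were adjusted by Benjamini-Hochberg over the 21484 genes tested in each comparison, and an adjusted p under 0.05 is a call. Of 21 comparisons, 4 (96 h against 16 h) were added after values had been seen. CPM values of members are TMM-scaled, and RPKM divides them by union exon length. CPM values of cell type markers and summed levels of lists are scaled by total counts alone. In LB1 at 96 h against 16 h, scaling by library size only shifted the median log2 difference of all genes by 0.19. Alternatives used limma 3.58.1 and DESeq2 1.42.0, and a GC and length trend per library fitted over 8547 genes with splines. Members are given in full, and other genes by list, some of which are not reported here. The rule for the named list genes was a call in a response difference; other list genes were named after their values were seen. The members and the lists were chosen with earlier results of these data known. Precision follows depth, from 479446 counts upward: 3 counts, the floor, were 6.26 CPM in the shallowest library.

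Same-numbered wells count as paired in 1 comparison, LAC at 16 h against 0 h, because all 4 same-number pairs there had deviations correlated at r over 0.1 (0.12 to 0.69); the labels name no shared day or plate. No 2 replicates of a group matched within sampling noise, chi-square divided by its degrees of freedom being at least 3.97 over 66 pairs.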

Additional observations from a re-analysis of the deposited data

Results flagged for a closer look

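Within groups of 4 libraries, 90 sets of values were screened for a highest or lowest library far from the others, and 5 (5.56%) stood out by Dixon's 95% critical value; chance alone gives about 1 in 20. Of these, 4 come from the first LB2 library at 0 h, which held 1894447 counts and whose gene deviations had a Spearman correlation of 0.65 with GC content. It read CBX3 at 209.6 CPM, where the others held 400.2 to 413 CPM. The same library read TRIM28 at 1232 CPM, against 553 to 600 CPM in the others, EHMT2 at 140.3 CPM, against 62.7 to 71.1 CPM, and EHMT1 at 125.3 CPM, against 52.6 to 64.7 CPM. The fifth is SUV39H2 in the third LB2 library at 16 h, at 45.7 CPM against 68.7 to 72.7 CPM, in the library with 479446 counts. The part of depth or GC content in these values was not tested.

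Responses that differed between lines by a test of the difference were those of EHMT2 and TRIM28 at 96 h. The LAC response minus the parental response was -0.925 for EHMT2 (edgeR adjusted p = 0.017) and -0.9295 for TRIM28 (edgeR adjusted p = 0.020), on the log2 scale. Both comparisons share the same libraries, and their values with GC and length trends removed were -0.37 and -0.26.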

How the results depend on the processing

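Of 189 member tests, 23 were called, 11 of them under all 9 other settings; none changed sign, and 32 further tests were called in at least 1 setting. Counts are of 9 members, or of 18 where 16 and 96 h are pooled. The number of all genes called moved with the setting too. In the parental line at 16 h it was 1935 of 21484 as reported, 2806 with trends removed and 4943 with voom. With compared libraries only it was 3266 of 14521. In LB2 at 16 and 96 h it was 388 and 762 as reported. With compared libraries only it was 4 of 16441 and 54 of 16889. In LAC at 16 and 96 h it was 383 and 3304 as reported, 399 and 3060 with trends removed, and 2789 and 5483 with voom. The LAC values with compared libraries only were 11 of 17182 and 1067 of 17166. In LB1 at 16 and 96 h it was 323 and 682 as reported, 1052 and 1535 with trends removed, and 1662 and 1619 with voom. For the LAC response difference at 96 h it was 1589 as reported and 3055 with voom. Parental changes from 0 h counted 4 as reported, 8 with GC and length trends removed, 7 with the compared libraries only, 7 with limma voom sample weights, 7 without libraries under 5000000 counts and 2 with library size only. LAC changes counted 3 as reported, 1 with trends removed, 0 with compared libraries only, 6 with voom, and 2 with no low-count filter or without shallow libraries. LB1 changes counted 1 as reported, 2 with trends removed, voom or without shallow libraries, and 0 with RLE scaling, library size only or no filter. LB2 changes counted 2 as reported, 0 with compared libraries only, 5 with voom, and 3 with trends removed or without shallow libraries. Response differences counted 2 in LAC and 5 with voom, 0 in LB1 and 1 with trends removed, compared libraries only or voom, and 0 in LB2 and 1 with voom. At 0 h LB2 differed from the parental line in 1, and in 2 with trends removed, 4 with voom and 3 without shallow libraries; LAC counted 3 or 4 and LB1 0 throughout. For 96 against 16 h, LAC counted 2, with 4 under compared libraries only, 5 under voom and 1 under library size only or no filter. LB1 counted 5 as reported, 4 with DESeq2 and 3 under no filter. The 5 in LB1 with trends removed were CBX1, CBX5 and TRIM28, lower, and CBX3 and SETDB1, higher, without SUV39H1 and EHMT2. LB2 counted 0 and 3 under voom.

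Leaving out each library in turn gave 1 to 5 for the parental changes, 0 to 5 for LAC, 0 to 1 for LB1 and 1 to 3 for LB2. The response differences gave 0 to 3 in LAC, 0 to 1 in LB1 and 0 to 0 in LB2, the 0 h comparisons 3 to 4 in LAC and 1 to 2 in LB2, and 96 against 16 h 0 to 2 in LAC and 3 to 5 in LB1. The share of all genes called in each of these fits is not given here, and the cause of these changes was not tested. With the replicate number as a block, the counts were 4, 3, 1 and 2 for the changes in the parental, LAC, LB1 and LB2 lines and 4 for LB1 at 96 against 16 h, so no count moved by over 1.5 times. Under the rule of r over 0.1 in all same-number pairs, the numbers count as pairs in LAC at 16 h only. The labels name no shared day or plate, and the test reported for that comparison was unpaired. CBX5 there had 0.60 with the block (edgeR adjusted p = 0.025). Whether GC content or depth enters these correlations was not tested. Over all comparisons, 118 of 243 same-number pairs had r over 0.1, and 25 of 46 libraries correlated best with their own number. Under library size only, the median log2 difference of all genes shifted by -0.12 in the parental line at 16 h and 0.21 in the LAC response difference at 96 h. Depth limits the values of CBX1, SUV39H1 and SETDB1 most, with as few as 16, 12 and 9 reads in the shallowest library.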

Other observations

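Polycomb genes write and read another repressive mark, H3K27 methylation, and include chromodomain relatives of the HP1 genes. Over the 22 on the list, all tested, the median LAC response difference at 96 h was 0.07. CBX6, a chromodomain gene of Polycomb repressive complex 1, was lower by -1.03 ± 0.29 (edgeR adjusted p = 0.024), in a comparison with 7.4% of all tested genes called. With GC and length trends removed it had -0.48 (adjusted p = 0.018), and the call was lost in 5 of 16 fits that left out a library, with adjusted p up to 0.069. At 0 h, CBX2, CBX6, CBX8 and RING1 were called higher in LAC than in untagged cells, by 0.63, 0.89, 0.58 and 0.43, whereas CBX7 was lower (-0.75, adjusted p = 0.022), and 15.8% of all tested genes were called. Of these calls, CBX8 and RING1 were lost with trends removed (0.27 and 0.10), and fits that left out a library lost CBX8 in 2, RING1 in 5 and CBX7 in 4 of 8. BMI1, another subunit, rose at 16 h in LAC (0.87, adjusted p = 0.00019) and LB2 (0.98, adjusted p = 9.4e-06). In those comparisons 1.78% and 1.81% of all tested genes were called. No Polycomb gene was called in the response differences from the parental line at 16 h. BMI1 was higher in LB2 than in untagged cells at 0 h (1.77, adjusted p = 2.5e-13). It was lower at 96 h than at 16 h in LB2 (-1.001, adjusted p = 3.2e-05) and LB1 (-0.58, adjusted p = 0.0022).

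Proliferation genes were also called in comparisons in which members were called. Of 15 tested, 6 were called lower in LB1 at 96 h than at 16 h, with a median of -0.29, in the comparison in which 5 of the 9 members were called lower and 20.4% of all tested genes were called. Their summed level was 3957 to 4358 CPM in LB1 at 16 h and 3664 to 4019 CPM at 96 h. In LAC at 96 h against 0 h, 3 were lower (CDC20, PLK1 and MCM2, by -0.40, -0.41 and -0.48) and 2 higher (PCNA and CCNE2, by 0.38 and 0.69), where 15.4% of all tested genes were called, with summed levels of 3063 to 4220 CPM at 0 h and 3884 to 4172 CPM at 96 h. CDC20, an activator of the anaphase-promoting complex, was the proliferation gene called in the parental line at 16 h (0.42, edgeR adjusted p = 0.011). In that comparison 9.01% of all tested genes were called. At 0 h, 4 were higher and 2 lower in LAC than in untagged cells, where 15.8% of all tested genes were called, and 4 were higher in LB2, where 8.21% were, with medians of 0.24 and 0.27. With trends removed CDC20, PLK1 and MCM2 in LAC at 96 h had -0.10, -0.13 and -0.16, none of them called. The part of proliferation in the members' values was not tested.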
